A study of Mus musculus with 17 samples.

Results

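The 8 genes described here are Mx1, Mx2, Rsad2, Cmpk2, Ifi44, Bst2, Eif2ak2 and Zbp1. They belong to gene families whose proteins act directly against viruses or set off defence inside an infected cell. They were taken by gene symbol from the 55491 gene rows of each of a pair of RNA-seq count tables, and all 8 were present once in each table and passed the filter on low counts. The tables cover mouse B cells from spleen and bone marrow dendritic cells (BMDC), left untreated (Control), treated with MSA2, or treated with MSA2 and IPI-549 together. MSA2 is a small molecule that activates STING, the adaptor of the cytosolic DNA-sensing pathway, and IPI-549 is an inhibitor of PI3Kγ, a lipid kinase of leukocytes. The B cell table holds 3 libraries of each of B Control, B MSA2 and B MSA2+IPI-549. The BMDC table holds 3 libraries of BMDC Control, 3 of BMDC MSA2 and 2 of BMDC MSA2+IPI-549. IPI-549 was not given on its own to any group, and dose, time and age are not stated in the labels. The series text names KPC mice, a genetic model of pancreatic cancer in which Cre acts in the pancreas, as the source of all groups, while each sample's genotype label reads WT. Groups follow the titles of the 17 samples, because their treatment label does not vary and says Control throughout. Nothing in the labels says whether the libraries of a group came from separate animals or cultures, so the p-values measure the spread between these libraries, which may be technical.

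Active STING leads through the kinase TBK1 and the factor IRF3 to type I interferon. Secreted interferon binds the IFNAR receptor, whose signal switches on target genes through the interferon-stimulated response element. IRF3 can also act on some of these targets directly, without interferon. Mx1 and Mx2 belong to a family of dynamin-like GTPases that trap incoming viral nucleoproteins, though RefSeq lists both mouse genes as transcribed pseudogenes. Rsad2 encodes viperin, a radical SAM enzyme that turns CTP into a chain terminator of viral RNA polymerases, and Cmpk2 encodes a mitochondrial nucleotide kinase that makes CTP precursors. Bst2 encodes tetherin, which holds budding virions at the cell surface, and Ifi44 encodes an interferon-induced cytoplasmic protein. Eif2ak2 encodes PKR, which on binding double-stranded RNA phosphorylates eIF2α and slows translation, and Zbp1 encodes a sensor of Z-form nucleic acids that can start RIPK3-dependent cell death.

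The genes lie on chromosomes 2, 3, 8, 12, 16 and 17 of GRCm38 (positions from GENCODE M21). Rsad2 (chr12:26442746-26456452, minus strand) and Cmpk2 (chr12:26469204-26479837, plus strand) are neighbours transcribed away from each other, with 12752 bases between their first bases and 0 annotated genes between them. Mx1 (chr16:97447035-97462907, minus strand) and Mx2 (chr16:97535308-97560900, plus strand) also point away from each other, with 72401 bases between their first bases and 4 genes in that interval. Ifi44 spans chr3:151730922-151749960, Bst2 chr8:71534255-71537456, Eif2ak2 chr17:78852564-78882573 and Zbp1 chr2:173206612-173218923, all on the minus strand. GENCODE lists Mx1 as protein coding and Mx2 as a polymorphic pseudogene, and RefSeq lists both as transcribed pseudogenes. Counts of their transcripts do not show whether either gene yields a working protein. Of the 50-base stretches of Mx1 transcripts, 4.37% also occur in another gene, Mx2 among them, and of those of Mx2, 4.38% occur in Mx1. The corresponding share was 2.88% for Eif2ak2 and 0 for the other members. Exons of Eif2ak2 also overlap Gm26637 and n-R5s29 on the opposite strand, and strandedness of the counting is not given in the sources used here, so reads of these genes cannot be told apart.

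Sequence around the start sites is shown because several members changed together and most are textbook interferon targets. RefSeq (GRCm38.p6) start-site windows, from 250 bases before to 50 bases after the start, were found for 5 of the 8 genes (Rsad2, Cmpk2, Ifi44, Bst2 and Eif2ak2). They were searched on both strands for the response element core GAAANNGAAA, for the same half-sites with 3 bases between them (GAAANNNGAAA), and for the gamma-activated site core TTCNNNGAA. Below, capitals mark matches to the response element core or its wider-spaced form, 5′ to 3′ on the strand of the gene. For Rsad2 and Bst2 the 150 bases before the start are given, and for Ifi44 and Eif2ak2 30 bases around the match.
Rsad2, chr12:26456453-26456602, minus strand: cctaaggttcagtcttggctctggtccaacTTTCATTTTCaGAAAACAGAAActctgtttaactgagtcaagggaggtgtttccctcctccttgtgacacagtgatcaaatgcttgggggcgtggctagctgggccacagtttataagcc
Bst2, chr8:71537473-71537622, minus strand: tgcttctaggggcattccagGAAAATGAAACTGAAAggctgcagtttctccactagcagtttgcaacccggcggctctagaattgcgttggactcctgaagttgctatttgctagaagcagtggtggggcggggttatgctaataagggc
Ifi44, chr3:151749946-151749975, minus strand: gtatacagagTTTCAGTTTTCgtttcccga
Eif2ak2, chr17:78882535-78882564, minus strand: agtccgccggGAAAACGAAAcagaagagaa

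The response element core matched in 3 of the 5 windows (Rsad2, Bst2 and Eif2ak2) and in 3.43% of all 32817 RefSeq windows of this length. In Rsad2 a core match on the opposite strand, from -120 to -111, was followed by a wider-spaced match from -109 to -99. Bst2 held a pair of overlapping core matches, from -130 to -121 and from -124 to -115, and Eif2ak2 held its match after the start, from 19 to 28. Ifi44 held the wider-spaced form on the opposite strand, from -55 to -45, a form found in 2.75% of all windows. The gamma-activated site core, found in 8.29% of windows, matched in Bst2 (-136 to -128, overlapping the first core match) and Eif2ak2 (-178 to -170). The Cmpk2 window held none of these letters. Among 32 other interferon-induced antiviral genes, 26 had a window and 11 of those held the core. Any link between these matches and the changes described below was not tested.

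The libraries held 41093440 to 51433008 counts in B cells and 34760025 to 73166643 in BMDC, the deepest being BMDC MSA2 replicate 2. The 3 B MSA2 libraries stood apart from the other B cell libraries in cell type markers, as the plot of marker sums shows. The summed level of 12 B cell markers was 4376 to 4907 CPM (read counts scaled to library size with TMM factors) in B MSA2, against 8700 to 9252 in B Control and 8747 to 9528 in B MSA2+IPI-549, and all 12 were called lower in B MSA2 than in B Control. All 12 T cell, 8 NK cell, 10 monocyte and macrophage, 8 neutrophil, 6 erythroid and 5 mast cell and basophil markers were called higher in B MSA2 than in B Control. Of 10 dendritic cell markers, 6 were called higher, 1 lower and 3 neither. For example, the summed T cell markers reached 1026 to 1309 CPM in B MSA2, against 12.5 to 35.2 in B Control and 7.95 to 9.51 in B MSA2+IPI-549. The summed monocyte and macrophage markers reached 1394 to 1550 CPM, against 45.0 to 64.8 and 47.5 to 49.6. In B MSA2+IPI-549, none of these markers of other cells was called higher than in B Control, and 4 to 5 of the 8 neutrophil markers were at 0 in a library. In such bulk samples, fewer cells of a type and less RNA per cell cannot be told apart. The library numbers in the labels also separate these samples, with 8, 11 and 12 for B MSA2 and 1 to 6 for the other B cell libraries. The BMDC libraries carried Itgax, a dendritic cell integrin, at 1270 to 1890 CPM and monocyte and macrophage markers at a summed 14400 to 19940 CPM. In them Flt3, which marks conventional dendritic cells, was at most 1.08 CPM and Siglech, which marks plasmacytoid dendritic cells, at most 0.0567 CPM. The other listed dendritic cell markers in BMDC ranged widely. Xcr1 was at most 3.5 CPM, Clec9a at 3.35 to 6.89, Zbtb46 at 12.3 to 22.5 and Cd209a at 30.1 to 46.4. Fscn1 was at 22.4 to 170 CPM, Ccr7 at 59.0 to 263 and H2-Ab1 at 2330 to 3010.

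**Figure D1:**
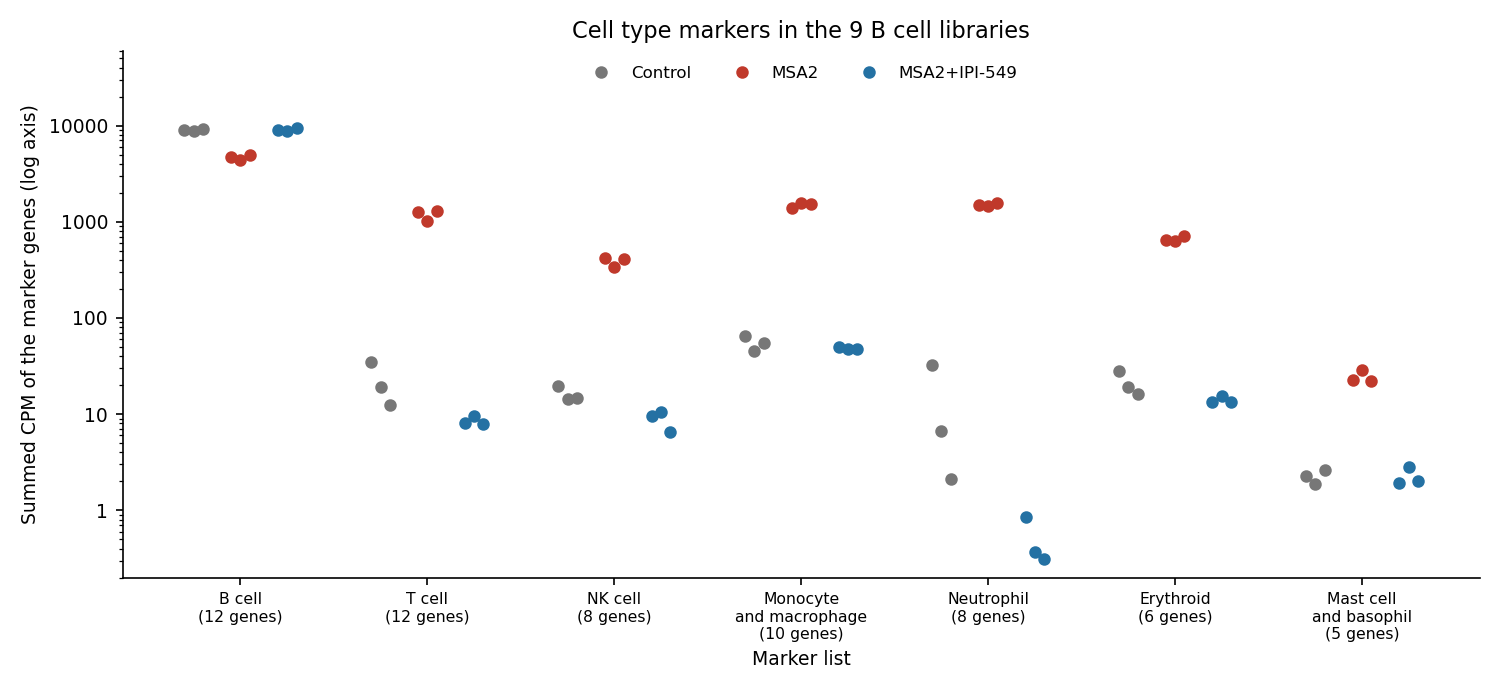
Summed CPM of marker genes (y axis, log scale) for 7 cell types (x axis) in each of the 9 B cell libraries, with points coloured by treatment. B cell markers were lowest in the MSA2 libraries (4376 to 4907 CPM), and the markers of the other 6 cell types were highest there, for example 1026 to 1309 CPM for T cells.

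In B cells, MSA2 was accompanied by higher levels of 7 of the 8 genes, with Eif2ak2 the exception. A gene was called where edgeR's quasi-likelihood test gave a Benjamini-Hochberg adjusted p under 0.05 over all genes tested. Of 16180 genes, 43.4% were called in this comparison and 24.9% were called higher, and the median log2 fold change was 0.88 over the 8 genes and -0.01 over all genes. Rsad2 changed most, by 2.67 ± 0.30 on the log2 scale (fold change ± SE, adjusted p = 3.07e-05), followed by Mx2 at 1.89 ± 0.22 (adjusted p = 3.17e-05). The markers of other cells given above rose in the same libraries, and their part in these changes was not tested. Scaling the libraries by the 12 B cell markers in place of TMM moved the median of all genes by 0.94. Relative to that shift, Eif2ak2 (0.97) again lay at the level of the typical gene, although it was then called, and the other members ranged from 1.49 (Bst2) upward.

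With MSA2+IPI-549, where the markers of other cells were not raised, 4 of the 8 genes were called higher than in B Control: Rsad2, Mx2, Cmpk2 and Mx1. In this comparison 1.06% of all genes were called, 0.686% higher and 0.371% lower. Rsad2 was 6.71-fold higher (log2 fold change 2.75 ± 0.31, adjusted p = 0.000669) and Mx2 5.38-fold higher (2.43 ± 0.22, adjusted p = 0.000119). Cmpk2 was 2.55-fold higher (1.35 ± 0.18, adjusted p = 0.00224) and Mx1 1.64-fold higher (0.71 ± 0.13, adjusted p = 0.0242). The call of Mx1 was lost when any of the 6 compared libraries was left out, with adjusted p between 0.0549 and 0.111, and with scaling by B cell markers (0.70, adjusted p = 0.111). Zbp1, Ifi44, Bst2 and Eif2ak2 had log2 fold changes of 0.23, 0.12, -0.07 and -0.11, and none passed the test.

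Set directly against B MSA2, the B MSA2+IPI-549 libraries had lower Ifi44, Bst2 and Zbp1, while the other 5 genes were not called. Of all genes 37% were called here, 14.1% higher and 22.9% lower. All 12 T cell, 8 NK cell, 10 monocyte and macrophage, 8 neutrophil, 6 erythroid and 5 mast cell and basophil markers were also called lower and all 12 B cell markers higher, and their part in these differences was not tested. The differences were -0.91 ± 0.13 for Ifi44 (adjusted p = 0.000204), -0.62 ± 0.09 for Bst2 (adjusted p = 0.00025) and -0.45 ± 0.10 for Zbp1 (adjusted p = 0.00467), on the log2 scale. Mx2 was 0.54 ± 0.20 higher (adjusted p = 0.0553) and passed when libraries with the same title suffix were treated as pairs, a replicate block (0.51, adjusted p = 0.0250), with DESeq2 (adjusted p = 0.0303), with no low-count filter (0.0142) and with upper quartile factors (0.0416). Without B MSA2+IPI-549 replicate 3, the library with the lowest Rsad2, Mx2, Cmpk2 and Zbp1 of its group, Mx2 (0.75, adjusted p = 0.00305) and Cmpk2 (0.46, adjusted p = 0.0155) were called higher. With scaling by B cell markers, which moved the median of all genes by -0.96, the signs of Mx2 (-0.42), Cmpk2 (-0.69) and Rsad2 (-0.87) turned negative, though these values lay above that shift, while Zbp1 (-1.41), Bst2 (-1.57) and Ifi44 (-1.87) lay below it.

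In BMDC, MSA2 was accompanied by much higher Rsad2, Mx2 and Cmpk2, by 65.2-fold, 51.4-fold and 37.2-fold, and by higher Mx1, Ifi44 and Zbp1, by 6.55-fold, 3.36-fold and 2.16-fold. These 6 genes were called, while Bst2 and Eif2ak2 were not. Of 14614 genes, 28.2% were called and 14.6% were called higher, with a median log2 fold change of 2.23 over the 8 genes and -0.01 over all. With MSA2+IPI-549 the same 6 genes were called higher than in BMDC Control, and Eif2ak2 was called lower, against 12.9% of all genes called, 7.51% higher and 5.38% lower. Each of the 6 was higher in every treated library than in every BMDC Control library, a separation seen in 20.3% of all genes for MSA2 and in 23.3% for MSA2+IPI-549. For MSA2+IPI-549 it also held for Bst2, which was not called.

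Between the treated BMDC groups, 7 of the 8 genes had lower values in each of the 2 MSA2+IPI-549 libraries than in any MSA2 library, as did 12.6% of all genes. None of the 8 was called, and neither was any of the 14614 genes (0%). The log2 differences were largest for Cmpk2 (-1.72 ± 0.33, adjusted p = 0.137), Rsad2 (-1.18 ± 0.25, adjusted p = 0.174) and Mx2 (-0.98 ± 0.23, adjusted p = 0.204). At an unadjusted p under 0.05 in edgeR, 7 of the 8 genes were lower, as were 931 genes in all (6.37%), and Bst2 was at 0.02 ± 0.08. DESeq2 called Cmpk2 and Zbp1 lower among 162 genes in all, and limma-voom called none of the 8 among 3 genes. With no low-count filter, edgeR called 7 of the 8 lower among 561 genes. Without BMDC MSA2 replicate 2, the deepest library, Mx1, Mx2, Rsad2 and Cmpk2 were called lower, with adjusted p of 0.0328, 0.0328, 0.0387 and 0.0205.

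**Figure D2:**
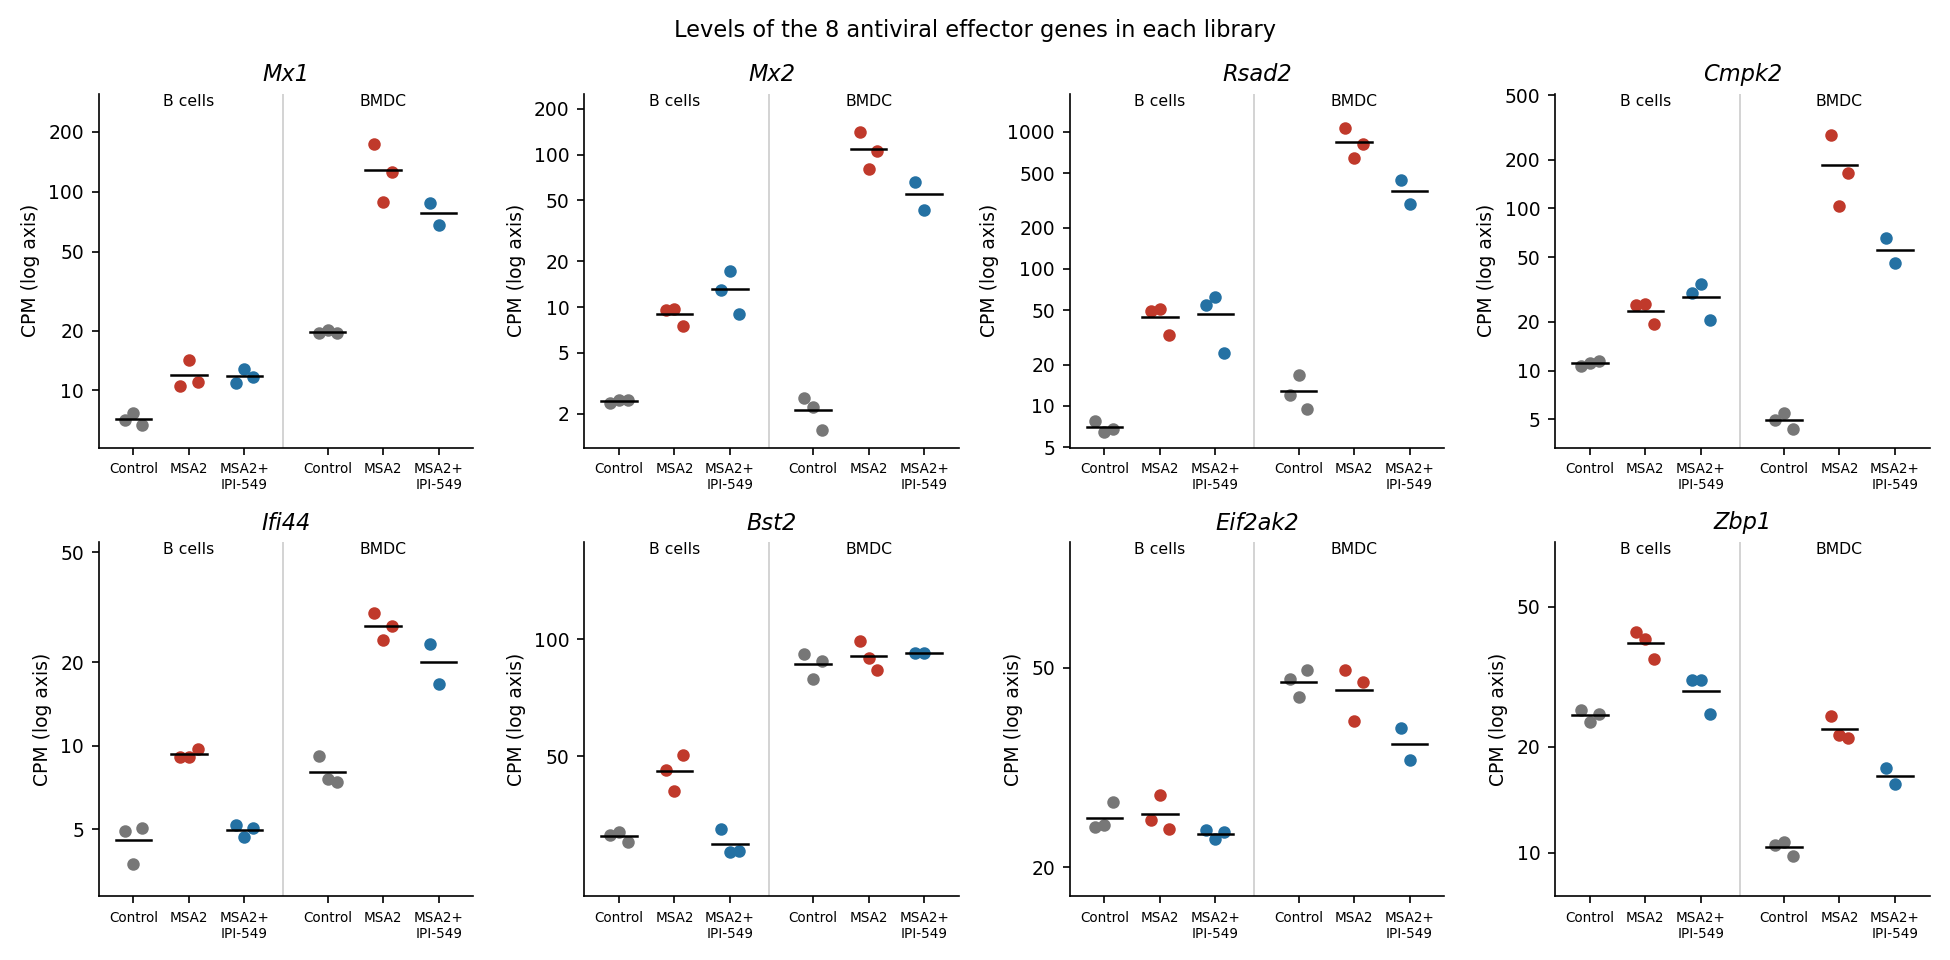
CPM of each gene (y axes, log scale, a different range in each panel) in the 17 libraries by group (x axis), with points for libraries and bars for group means. Rsad2, Mx2 and Cmpk2 rise furthest in BMDC with MSA2, whereas Ifi44 and Bst2 in B cells are higher in the MSA2 libraries than in the Control and MSA2+IPI-549 libraries.

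**Figure D3:**
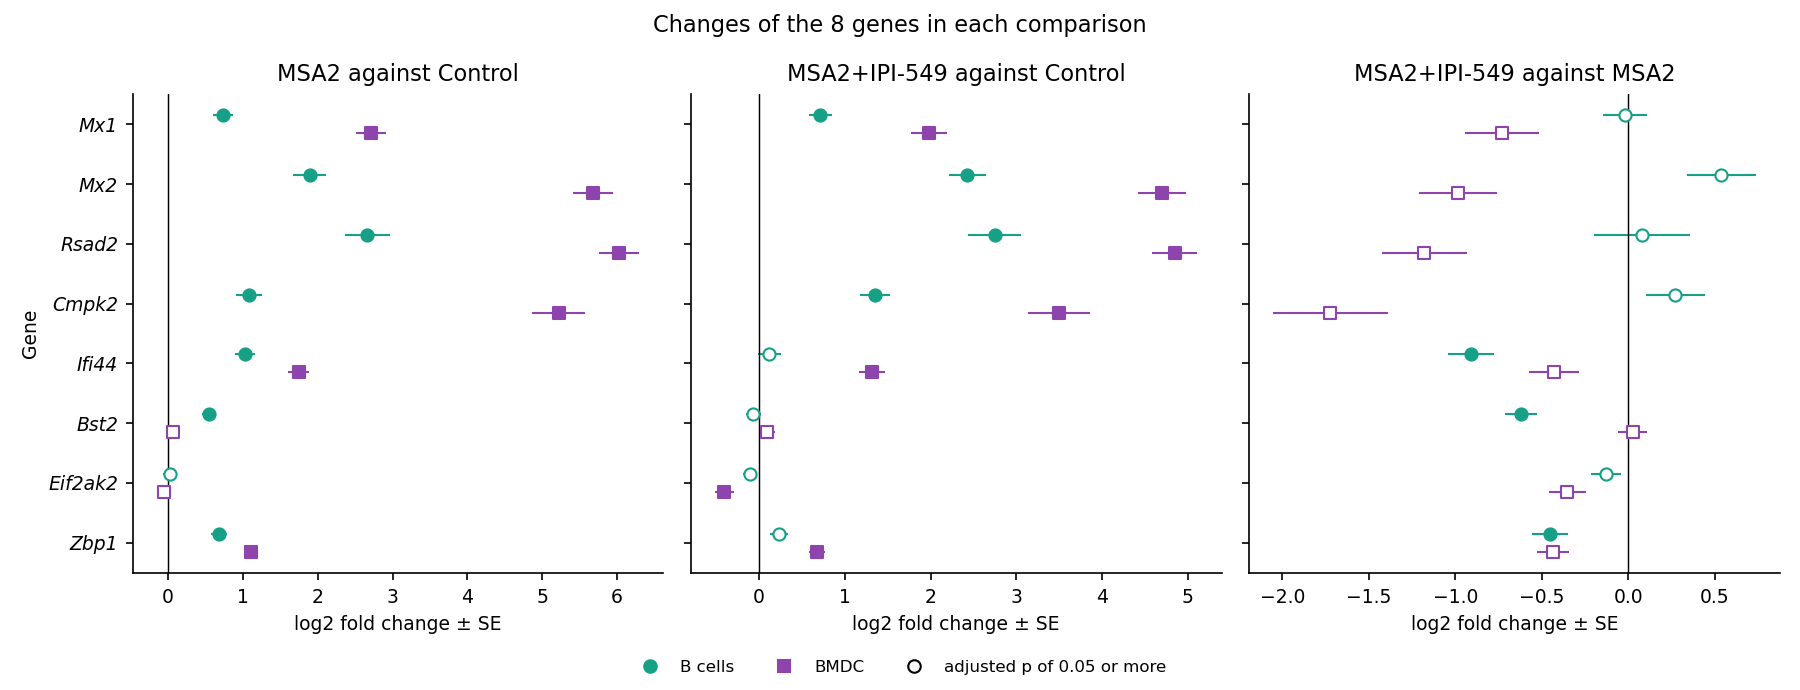
The log2 fold change ± SE (x axes) of each gene (y axis) in 3 comparisons, for B cells (circles) and BMDC (squares), with filled symbols for an adjusted p under 0.05. Rsad2 in BMDC reaches 6.03 with MSA2, and Eif2ak2 lies near 0 in both cell types with MSA2.

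Mx1 and Mx2, genes of the dynamin-like GTPase family, differed in their starting level and in their response. Mx2 was at 2.34, 2.47 and 2.45 CPM in the B Control libraries, at 9.63, 9.76 and 7.56 in B MSA2 and at 12.9, 17.2 and 9.003 in B MSA2+IPI-549. Every treated B cell library was above every Control library, while the treated groups overlapped. In BMDC it rose from 2.52, 2.22 and 1.56 CPM to 140, 80.0 and 106 with MSA2, and was at 66.2 and 43.4 with MSA2+IPI-549. No BMDC group overlapped another, and the log2 fold changes against Control were 5.68 ± 0.27 (adjusted p = 7.17e-08) and 4.70 ± 0.27 (adjusted p = 7.6e-07).

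Mx1 started higher and changed less. Its levels were 7.07, 7.72 and 6.70 CPM in B Control, 10.5, 14.2 and 11.01 in B MSA2 and 10.8, 12.8 and 11.6 in B MSA2+IPI-549. The treated B cell groups covered the same range, with a log2 fold change of 0.73 ± 0.13 for MSA2 against Control (adjusted p = 0.00089) and -0.02 ± 0.13 between the treated groups. In BMDC it was at 19.5, 20.1 and 19.4 CPM in Control, 174, 89.2 and 125 with MSA2 and 87.4 and 68.1 with MSA2+IPI-549. Against Control this was 2.71 ± 0.20 (adjusted p = 2.59e-06) and 1.98 ± 0.21 (adjusted p = 9.33e-05), so both treatments separated from Control while BMDC MSA2 replicate 2 came within 2 CPM of the nearest combination library. Per kilobase of the longest coding transcript, the log2 ratio of Mx2 to Mx1 was -3.19 to -2.50 in BMDC Control, 0.14 to 0.29 in BMDC MSA2 and -0.20 to 0.05 in BMDC MSA2+IPI-549. In B cells it was -1.19 to -0.9998 in Control, -0.09 to 0.33 in MSA2 and 0.08 to 0.88 in MSA2+IPI-549. Mx2 was thus the lower of the pair in every Control library, and near or above Mx1 in the treated ones.

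Rsad2, the viperin gene, reached the highest CPM of the 8. It was at 7.77, 6.45 and 6.74 CPM in B Control, 48.9, 51.1 and 33.2 in B MSA2 and 54.1, 62.4 and 24.4 in B MSA2+IPI-549. All treated B cell libraries were above Control, with the lowest treated value in B MSA2+IPI-549 replicate 3. In BMDC it was at 12, 16.8 and 9.54 CPM in Control, 1060, 642 and 817 with MSA2 and 443 and 298 with MSA2+IPI-549. The BMDC groups did not overlap, and the log2 fold changes against Control were 6.03 ± 0.27 (adjusted p = 4.66e-08) and 4.85 ± 0.26 (adjusted p = 4.26e-07).

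Cmpk2, its neighbour on chromosome 12, moved in the same directions from another starting point. Its levels were 10.6, 11.1 and 11.5 CPM in B Control, 25.3, 25.6 and 19.3 in B MSA2 and 29.98, 34.3 and 20.4 in B MSA2+IPI-549. MSA2 gave a log2 fold change of 1.08 ± 0.18 in B cells (adjusted p = 0.000443), and treated and Control libraries did not overlap. In BMDC, Cmpk2 was at 4.96, 5.45 and 4.35 CPM in Control, 284, 103 and 166 with MSA2 and 65.4 and 46.2 with MSA2+IPI-549. Relative to its mean, it varied more within BMDC MSA2 (185 ± 91.9 CPM, SD, n = 3) than Rsad2 did (839 ± 210), with replicate 1 highest for both genes. The log2 fold changes against Control were 5.22 ± 0.35 (adjusted p = 1.22e-06) and 3.497 ± 0.36 (adjusted p = 6.22e-05). Per kilobase, the log2 ratio of Rsad2 to Cmpk2 was -1.02 to -0.69 in B Control, 0.54 to 0.76 in B MSA2 and 0.02 to 0.62 in B MSA2+IPI-549. In BMDC the ratio was 0.89 to 1.39 in Control, 1.66 to 2.39 with MSA2 and 2.45 to 2.52 with MSA2+IPI-549. The neighbours thus kept no fixed proportion, since Cmpk2 was the higher of the pair in untreated B cells and Rsad2 in every other group.

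Ifi44, a cytoplasmic interferon-induced protein, had low levels throughout. It was at 4.96, 3.74 and 5.06 CPM in B Control, 9.13, 9.12 and 9.76 in B MSA2 and 5.17, 4.70 and 5.04 in B MSA2+IPI-549. The B MSA2 libraries stood above the other B cell libraries (1.03 ± 0.13 against Control, adjusted p = 7.76e-05), and the combination libraries overlapped Control. Markers of other cells were raised in the same B MSA2 libraries, and their part in the Ifi44 level was not tested. In BMDC, Ifi44 was at 9.22, 7.58 and 7.44 CPM in Control, 30.2, 24.1 and 27.1 with MSA2 and 23.4 and 16.8 with MSA2+IPI-549. Both treatments raised it there, by 1.75 ± 0.14 (adjusted p = 3.96e-06) and 1.32 ± 0.15 (adjusted p = 0.000147).

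Bst2, the tetherin gene, which is also a surface marker of mouse plasmacytoid dendritic cells, was at 31.4, 31.99 and 30.2 CPM in B Control, 46.2, 40.7 and 50.3 in B MSA2 and 32.4, 28.4 and 28.5 in B MSA2+IPI-549. As with Ifi44, only the B MSA2 libraries stood apart among B cells, at 0.55 ± 0.09 against Control (adjusted p = 0.000523). Siglech was at 9.32 to 11 CPM in those libraries, against 0.0437 to 0.16 in B Control and 0.0216 to 0.154 in B MSA2+IPI-549, and its cells' part in the Bst2 level was not tested. In BMDC, Bst2 was at 91.7, 79.2 and 87.8 CPM in Control, 98.7, 89.4 and 83.5 with MSA2 and 91.9 and 92.3 with MSA2+IPI-549. These values showed no called change, with 0.07 ± 0.08 for MSA2 (adjusted p = 0.541) and 0.10 ± 0.08 for the combination (adjusted p = 0.542).

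Zbp1, the Z-nucleic acid sensor, was at 25.5, 23.6 and 24.8 CPM in B Control, 42.5, 40.7 and 35.4 in B MSA2 and 30.9, 30.9 and 24.8 in B MSA2+IPI-549. B MSA2 lay above both other groups (0.68 ± 0.10 against Control, adjusted p = 0.000265), and combination replicate 3 fell within the Control range. In BMDC it was at 10.5, 10.8 and 9.80 CPM in Control, 24.5, 21.7 and 21.2 with MSA2 and 17.4 and 15.7 with MSA2+IPI-549. The 3 BMDC groups did not overlap, at 1.11 ± 0.09 (adjusted p = 3.23e-06) and 0.68 ± 0.10 (adjusted p = 0.000666) against Control. Of 6 genes of the cell death machinery around ZBP1, 2 were called higher and 1 lower in B MSA2 against B Control, where 43.4% of all genes were called. These were Mlkl, the executioner of necroptosis (1.97), Ripk1 (0.29) and Fadd (-0.45). Mlkl was at a mean of 0.621 CPM in B Control, 2.44 in B MSA2 and 0.629 in B MSA2+IPI-549, so among B cells it too was high only in the libraries with raised markers of other cells, whose part was not tested. In BMDC, MSA2 was accompanied by higher Ripk3, the kinase that ZBP1 recruits (0.33, adjusted p = 0.00998), and lower Ripk1 (-0.18, adjusted p = 0.0313), and the combination by higher Ripk3 (0.38, adjusted p = 0.0149).

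Eif2ak2, the PKR gene, had the smallest change of the 8 with MSA2 against Control in B cells, though not in the other B cell comparisons. In BMDC with MSA2, the changes of Eif2ak2 (-0.05 ± 0.09) and Bst2 (0.07 ± 0.08) were both smaller than their SE, so their order is not settled. Eif2ak2 did not have the smallest change in the other BMDC comparisons. It was at 24.1, 24.2 and 27.0 CPM in B Control, 24.8, 27.9 and 23.8 in B MSA2 and 23.8, 22.8 and 23.5 in B MSA2+IPI-549. None of the B cell comparisons was called, with 0.02 ± 0.09 for MSA2 against Control (adjusted p = 0.844). In BMDC it was at 47.3, 43.6 and 49.4 CPM in Control, 49.4, 39.2 and 46.8 with MSA2 and 37.9 and 32.7 with MSA2+IPI-549. The combination libraries were the lowest, at -0.41 ± 0.11 against Control (adjusted p = 0.03), a call lost without BMDC Control replicate 1 (adjusted p = 0.0784) or 3 (0.0757), or without combination replicate 1 (0.0621) or 2 (0.273). Of 8 partners and targets of PKR, 4 were called higher and 1 lower in B MSA2 against Control, 2 higher in B MSA2+IPI-549, 4 higher in BMDC MSA2 and 2 higher in BMDC MSA2+IPI-549. The shares of all genes called in these comparisons were 43.4%, 1.06%, 28.2% and 12.9%. Ppp1r15a, the phosphatase subunit that reverses eIF2α phosphorylation, was called in all 4 comparisons, with log2 fold changes of 2.90, 3.22, 4.93 and 4.86. Atf3, a stress-induced transcription factor, was called in B cells with MSA2 (0.80) and with the combination (1.36), and in BMDC with MSA2 (1.66). Eif2s1, the PKR substrate eIF2α, was called lower in B MSA2 (-0.41) and higher in BMDC MSA2 (0.34). Prkra (0.90) and Dnajc3 (0.33) were also called higher in B MSA2. In B MSA2+IPI-549 they were at -0.13 and 0.05 against Control, not called, and both were called lower than in B MSA2 (-1.04 and -0.28). The markers of other cells were raised in the B MSA2 libraries, and their part in these changes was not tested.

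Between untreated cell types, BMDC had higher Bst2, Mx1, Eif2ak2, Rsad2 and Ifi44 than B cells and lower Zbp1 and Cmpk2, while Mx2 was not called. In this comparison 79.9% of 17740 genes were called, 39.3% higher and 40.6% lower in BMDC, and since each cell type has its own count table, cell type and table cannot be told apart. The log2 differences, BMDC minus B, were 1.57 for Bst2, 1.56 for Mx1, 1.003 for Eif2ak2, 0.98 for Rsad2, 0.92 for Ifi44, -0.09 for Mx2, -1.06 for Cmpk2 and -1.14 for Zbp1. Without BMDC Control replicate 2, the BMDC Control library with the highest Rsad2, that gene fell short (0.73, adjusted p = 0.0518).

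The response to MSA2 differed between the cell types for 7 of the 8 genes, by a test of the difference in a joint fit of all 17 libraries that called 37% of genes, 16.3% more positive in BMDC and 20.7% more negative. The change was larger in BMDC for Cmpk2 (by 4.15 on the log2 scale, adjusted p = 1.53e-07), Mx2 (3.80), Rsad2 (3.37), Mx1 (1.99), Ifi44 (0.73) and Zbp1 (0.44), and larger in B cells for Bst2 (-0.47, adjusted p = 0.00528). The difference for Eif2ak2 was -0.07 (adjusted p = 0.747). The B MSA2 libraries carried raised markers of other cells and lower B cell markers, and their part in these differences was not tested. Cell type and count table cannot be told apart here either. For MSA2+IPI-549 against Control, where 3.04% of genes differed (2.14% more positive in BMDC and 0.902% more negative), the change was larger in BMDC for Mx2 (2.25), Cmpk2 (2.12), Rsad2 (2.08), Mx1 (1.24) and Ifi44 (1.17). Leaving out BMDC MSA2+IPI-549 replicate 1 ended the calls of Mx1 (1.03, adjusted p = 0.109), Rsad2 (1.74, adjusted p = 0.0969) and Cmpk2 (1.83, adjusted p = 0.058), and limma-voom did not call Mx1 (adjusted p = 0.0603).

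The step from MSA2 to MSA2+IPI-549 also differed, with 24.1% of genes called, 15.3% more positive in BMDC and 8.83% more negative. It was more negative in BMDC than in B cells for Cmpk2 (-2.03, adjusted p = 0.000696), Mx2 (-1.56, adjusted p = 0.00144), Rsad2 (-1.29, adjusted p = 0.0282) and Mx1 (-0.75, adjusted p = 0.0469), and less negative for Bst2 (0.60, adjusted p = 0.00175). The markers of other cells in the B MSA2 libraries move with this step, and their part was not tested. The call of Rsad2 was lost without B MSA2+IPI-549 replicate 1 or 2, B MSA2 replicate 3, BMDC MSA2+IPI-549 replicate 2 or BMDC MSA2 replicate 1 (adjusted p of 0.0699, 0.0838, 0.0577, 0.178 and 0.0727). That of Mx1 held without B MSA2 replicate 2, BMDC MSA2 replicate 2 or BMDC MSA2+IPI-549 replicate 1 and was lost without any other single library, where it ranged from -0.48 without BMDC MSA2 replicate 1 to -0.81 without B MSA2+IPI-549 replicate 1. It was also lost with upper quartile factors (adjusted p = 0.0513), a filter of 1 CPM in 3 libraries (0.0545) and limma-voom (0.0863). Without BMDC MSA2+IPI-549 replicate 2, Ifi44 was called (0.67, adjusted p = 0.0278).

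Levels of different genes were compared as CPM per kilobase of the longest coding transcript. In B Control, Bst2 led at 39.4 ± 1.17 (SD, n = 3), followed by Zbp1 at 12.4 ± 0.469, Eif2ak2 at 5.82 ± 0.386, Cmpk2 at 3.46 ± 0.141, Mx1 at 2.12 ± 0.152, Rsad2 at 1.85 ± 0.184, Ifi44 at 1.58 ± 0.252 and Mx2 at 0.977 ± 0.029. Neighbours from Mx1 through Ifi44 lay within about 1 to 2 SD of each other, and the other steps were wider. In BMDC MSA2, Rsad2 led at 222 ± 55.5, ahead of Bst2 at 114 ± 9.69, which was first in the other 5 groups. Below them, Cmpk2 at 57.7 ± 28.7, Mx2 at 43.9 ± 12.1 and Mx1 at 38.2 ± 12.5 overlapped in range, although Mx2 was above Mx1 within each library. Zbp1 at 11.3 ± 0.888 and Eif2ak2 at 10.5 ± 1.23 overlapped, as did Eif2ak2 and Ifi44 at 9.32 ± 1.05, while every Zbp1 value was above every Ifi44 value. Within BMDC MSA2, replicate 1 was the highest for all 8 genes and replicate 2, the deepest library, the lowest for 6.

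The other interferon-induced antiviral genes, a list of 32, were described by the same test. In B cells, 20 were called higher with MSA2 and 1 lower (Apobec3, -0.34), against 7 higher and 0 lower with MSA2+IPI-549, with median log2 fold changes of 0.68 and 0.10. Of all genes, 24.9% were called higher with MSA2 and 0.686% with the combination. The 3 largest in each were Ifit1 (8.40 and 8.37), Ifit3b (6.12 and 6.43) and, for MSA2, Ifit3 (5.05) or, for the combination, Ifit2 (5.45). Between the treated B cell groups 13 were called lower and 4 higher, against 22.9% and 14.1% of all genes. Ifitm3 (-4.09), Oas3 (-2.16) and Oasl2 (-1.69) led the lower, and Oasl1 (1.10) and Ifit2 (0.94) the higher. The markers of T, NK, myeloid and erythroid cells were likewise called higher in B MSA2 and lower in the combination than in MSA2, and their part in these counts was not tested. In BMDC, 28 were called higher with MSA2 and 20 with the combination, none lower, against 14.6% and 7.51% of all genes. The medians were 1.21 and 0.82. No gene of the list was called between the treated groups, nor was any other gene (0%). The plot of the other antiviral genes places the 8 genes beside these.

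**Figure D4:**
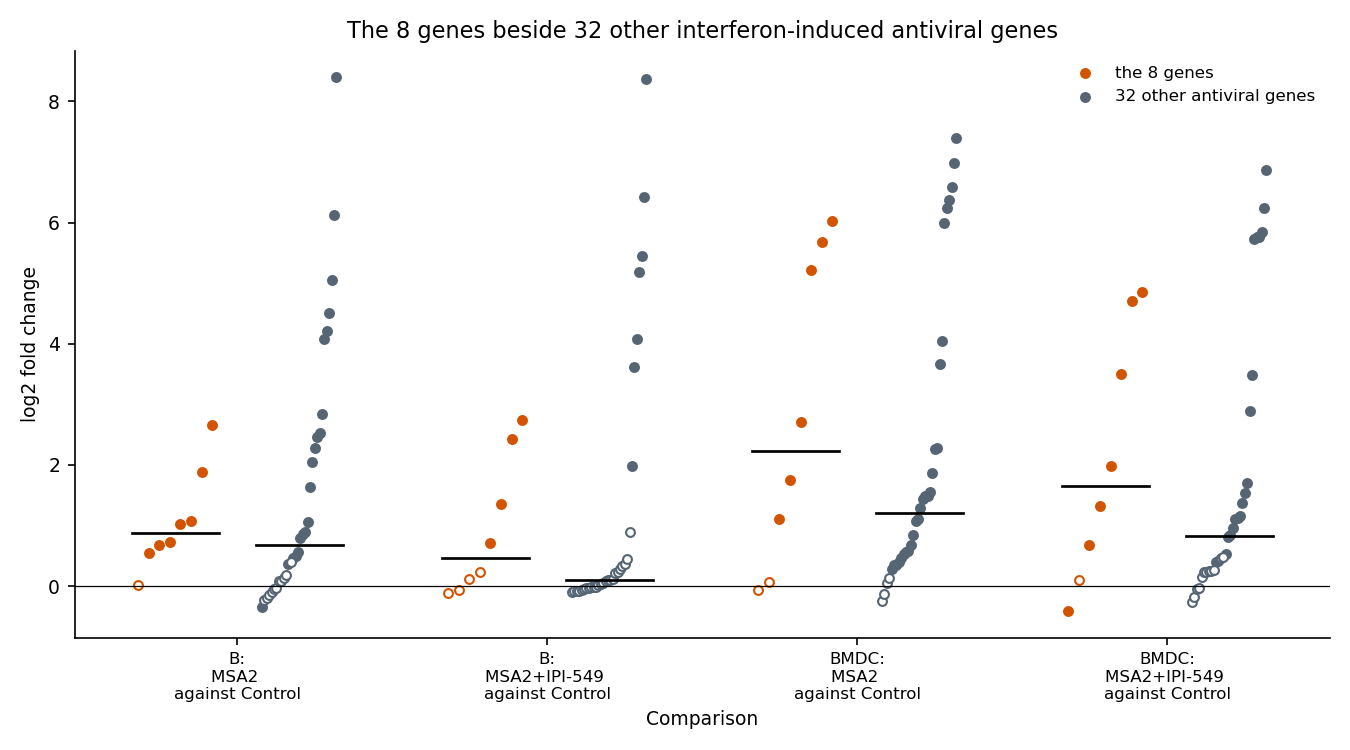
The log2 fold change against Control (y axis) of the 8 genes (orange) and of 32 other interferon-induced antiviral genes (grey) in 4 comparisons (x axis), with filled points for an adjusted p under 0.05 and bars for medians. In B cells with MSA2+IPI-549, 4 of the 8 genes and 7 of the 32 were called higher, and most of the remaining points lie near 0.

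Upstream of these genes, the type I interferon genes Ifna1, Ifnb1 and Ifna4 were almost silent in untreated B cells. Ifna1 and Ifnb1 had 0 counts over the 3 B Control libraries and Ifna4 had 1. Ifna1 reached 15.2 ± 2.99 CPM in B MSA2 and 37.9 ± 7.87 in B MSA2+IPI-549, and Ifnb1 0.960 ± 0.230 and 1.02 ± 0.652. In BMDC, Ifnb1 was far higher, at 1025 ± 66.9 CPM with MSA2 and 654 ± 28.8 with MSA2+IPI-549 (n = 2), and ranged from 0 to 11.2 in BMDC Control. Of 10 receptor and signalling genes, 6 were called higher in B MSA2, among them Irf7 (1.29) and Irf1 (0.76), against 24.9% of all genes. The markers of other cells rose in the same libraries, and their part was not tested. In B MSA2+IPI-549, 1 of the 10 was called higher, against 0.686% of all genes. This was Irf7, an interferon-induced factor that amplifies interferon genes (1.10, adjusted p = 0.000472). In BMDC MSA2, Irf7 (1.29), Irf1 (1.23), Stat2 (0.76) and Irf9 (0.35) were called higher, against 14.6% of all genes. The receptor genes Ifnar1 (-0.38) and Ifnar2 (-0.34) were called lower, against 13.5%.

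The genes most like each member were ranked by Pearson's r of log2(CPM + 1) over the 17 libraries after centring each cell type, among 11559 genes. The libraries share their treatments, so many genes have a high r, and no test was made. Mx1 was most like Parp14 (0.981), Mx2 like Dbr1 (0.982) and Oasl1 (0.98), Rsad2 like Tnf (0.985), and Cmpk2 like Armcx6 and Ttc9c (both 0.978). Zbp1 was most like Lif (0.985) and Ifih1 (0.98), Ifi44 like Nupr1 (0.977), and Bst2 like Mansc1 (0.954). No gene followed Eif2ak2 as closely, the first being Ppp4r1 (0.842). Among the members, Mx1, Mx2, Rsad2 and Cmpk2 had r of 0.964 to 0.991 with each other, while Eif2ak2 had -0.185 with Mx1 and -0.31 with Mx2.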

How the data were processed

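RNA was profiled in 17 libraries. The authors deposited 1 table of expected counts per gene for each cell type, whose values are whole numbers. Per the submitters' processing notes, the tools included cutadapt 4.8, STAR 2.7.8a, RSEM 1.3.3, FastQC 0.11.8 and MultiQC 1.20, with GRCm38/mm10; the annotation release and strand setting are not given in the sources used here. RSEM shares reads that fit several genes between them by estimation.

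From these counts, TMM factors, filterByExpr and quasi-likelihood tests were run in edgeR 4.0.16 (R 4.3.3), with 1 fit per cell type and a joint fit for differences between cell types; the script was tested on simulated data. Benjamini-Hochberg adjustment ran over all genes tested, with a threshold of 0.05. CPM were scaled within each cell type's table, so levels set across cell types rest on separate scaling. Alternatives were DESeq2 1.42.0, voom in limma 3.58.1, other library factors, scaling by B cell markers, other filters, the compared groups alone, and each library left out.

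The 8 genes and all lists were chosen with earlier results of these data known. The genes named are the 8 members and the 3 genes outside the members most like each by r. From each list came at most 3 called genes by size plus any called the other way. Further listed genes were named after their values were seen. Replicates are numbered by title suffix. Same-suffix deviations from group means correlated at 0.291, 0.297 and 0.487 between B MSA2 and B MSA2+IPI-549. In BMDC, same-suffix r was -0.165 to 0.0963. An alternative fit took the suffix as a replicate block over all groups of a cell type, in B cells and in BMDC. The labels do not state a pairing.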

Additional observations from a re-analysis of the deposited data

Results flagged for a closer look

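These results are listed because the effect of the same treatment differed between BMDC and B cells by a test of the difference itself (edgeR, joint fit, Benjamini-Hochberg adjusted over 17740 genes). Each value is the log2 change in BMDC minus that in B cells. For MSA2 against Control the differences were 4.15 for Cmpk2, 3.80 for Mx2, 3.37 for Rsad2, 1.99 for Mx1, 0.73 for Ifi44, 0.44 for Zbp1 and -0.47 for Bst2. For MSA2+IPI-549 against Control they were 2.25 for Mx2, 2.12 for Cmpk2, 2.08 for Rsad2, 1.24 for Mx1 and 1.17 for Ifi44. For MSA2+IPI-549 against MSA2 they were -2.03 for Cmpk2, -1.56 for Mx2, -1.29 for Rsad2, -0.75 for Mx1 and 0.60 for Bst2. Groups held 2 or 3 libraries, too few to judge a single library as outlying. Several of the calls that involve MSA2+IPI-549 were lost when 1 library was left out, as given above. The B MSA2 libraries carried markers of other cells, as given above, and their part in these differences was not tested.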

How the results depend on the processing

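With 2 or 3 libraries a group, single libraries decided several calls. Counts of called members stayed within 1.5 times of the reported count in all but a few settings. For MSA2+IPI-549 against MSA2 in B cells, 7 genes were called lower with scaling by B cell markers, and 3 to 5 were called when 1 library was left out. In BMDC the same comparison gave 7 called genes (all lower) with no low-count filter, 2 with DESeq2, and 0 to 4 when 1 library was left out. Over all genes it gave 561 calls with no filter, 162 with DESeq2, 3 with limma-voom, 13 with the compared groups alone and 0 to 99 without 1 library, in place of 0. For the difference between cell types, leaving out 1 library gave 2 to 5 called members for MSA2+IPI-549 against Control and 3 to 5 for MSA2+IPI-549 against MSA2. Over all genes, B MSA2+IPI-549 against Control gave 171 calls, 359 with no filter, 391 with DESeq2 and 91 to 220 without 1 library (91 without B Control replicate 2, 112 without combination replicate 1). BMDC MSA2+IPI-549 against Control gave 1883, and 843 to 2177 without 1 library (843 without combination replicate 1, 1036 without replicate 2). The difference between cell types for MSA2+IPI-549 against Control gave 539, 818 with no filter, 888 with DESeq2 and 246 to 654 without 1 library (246 without BMDC combination replicate 1, 330 without replicate 2). With upper quartile factors, the share of calls that were higher fell from 52% to 36.7% for MSA2 and from 58.3% to 47.2% for MSA2+IPI-549 in BMDC, and the median of all genes in BMDC against B Control moved by -0.108. With scaling by B cell markers that share was 99.6% in place of 57.3% for B MSA2 against Control, and 0.072% in place of 38.1% for the combination against MSA2.

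Some signs turned. For the combination against MSA2 in B cells, Mx1 (-0.02) was 0.00511 with upper quartile factors, 0.0172 with no filter and -0.0924 to 0.141 without 1 library; Rsad2 (0.08) was -0.00509 with limma-voom, -0.87 with B cell marker scaling and -0.172 to 0.396 without 1 library; Mx2 (0.54) and Cmpk2 (0.27) were -0.42 and -0.69 with that scaling, which moved the median of all genes by -0.96. Without 1 library, Eif2ak2 ranged from -0.0426 to 0.0787 for MSA2 in B cells, from -0.125 to 0.0429 in BMDC and from -0.139 to 0.0234 for their difference, Ifi44 from -0.0115 to 0.191 for the combination in B cells, Bst2 from -0.0306 to 0.0902 between the treated BMDC groups, and Mx2 from -0.242 to 0.0725 between untreated cell types. Bst2 for MSA2 in BMDC was -0.000319 with upper quartile factors. Zbp1 in the difference between cell types for the combination against MSA2 was 0.00921 with a filter of 1 CPM in 3 libraries and -0.116 to 0.05997 without 1 library. Where a compared group was left with 1 library, that library was assumed to vary like the others. The causes were not tested.

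The replicate block changed no call of a member other than that of Mx2 given above. It gave 7, 4 and 4 called members in the 3 B cell comparisons and 6, 7 and 0 in the BMDC comparisons, and moved the calls over all genes for B MSA2+IPI-549 against Control from 171 to 260. Outside their own group, 8 of 9 B cell libraries had their highest correlation with a same-suffix library. In BMDC, 2 of 8 did. Between B Control and the treated B cell groups, same-suffix r was -0.02 to 0.13. Whether the suffix marks a pairing in B cells is not settled.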

Other observations

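Of 7 genes that handle the nucleotides viperin and CMPK2 work on, or that serve viperin's iron-sulfur cluster, Tk2, a mitochondrial thymidine kinase (-0.51), and Dtymk, a thymidylate kinase (-0.26), were called lower in B MSA2 against Control, where 18.5% of all genes were called lower. B cell markers were lower and markers of other cells higher in the same B MSA2 libraries, and their part was not tested. In BMDC MSA2, Ctps, a CTP synthase (0.43), and Cmpk1, the cytosolic counterpart of CMPK2 (0.24), were called higher. Tk2 was called lower there (-0.35), and 28.2% of all genes were called. None of the 7 was called with MSA2+IPI-549 against Control in either cell type. Of all genes, 1.06% were called in that comparison in B cells and 12.9% in BMDC.

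Of the dynamin family GTPases other than Mx, 6 were tested in B cells and 5 in BMDC. Dnm3 (1.41) and Dnm2 (0.38) were called higher in B MSA2 against Control, as were 24.9% of all genes. Both were called lower in B MSA2+IPI-549 against B MSA2 (-1.48 and -0.35), as were 22.9% of all genes. The markers of other cells moved the same way, and their part was not tested. None was called in BMDC. Of all genes there, 28.2% were called with MSA2, 12.9% with the combination and 0% between the treated groups.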
